A study of Mus musculus with 12 samples.

Results

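A set of 6 genes of cell division and growth was followed tumor by tumor in melanomas treated with cytokines. The set held Birc5, Cdk1, Myc, Tfrc and Hmgb1, with the cyclin gene Ccnd3 beside them as a contrast. Members were taken by their probe names, and they are 6 of the 750 genes under study on the panel. All 6 were among the 729 genes that lay above background in at least 3 tumors and were tested. The set was chosen by measured values, as genes that fall, with no group named against which they fall. Low housekeeping-scaled counts in treated tumors against saline, for all but Ccnd3, were taken to be those values. For that reason every value of the 6 genes against saline is given as a description, with no test.

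RNA was counted on NanoString's nCounter platform with its mouse panel of cancer immunology genes, in which bar-coded probes hybridize to RNA and single molecules are counted without amplification. Every tumor was a B16F10 melanoma, from an established mouse line, in the flank of a C57BL/6 mouse, and was first injected on day 6 of growth. In the repeat-dose group, 3 tumors received 2 intratumoral doses of collagen-binding interleukin-2 and interleukin-12 and were taken 8 days after the first dose, which was 2 days after the second. In the late single-dose group, 3 tumors received 1 dose of the same proteins and were taken 8 days later. In the early single-dose group, 3 tumors received 1 dose and were taken 2 days later. In the saline group, 3 tumors were injected with saline and taken 2 days later. Saline tumors taken at 8 days are not analysed here, so for both groups taken at 8 days treatment and tumor age cannot be told apart against saline. The tissue was fixed in formalin and embedded in paraffin, and each RNA sample came from a whole piece of tumor with all its cell types.

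The genes act at different points of cell growth. Cdk1 encodes the kinase that drives entry into mitosis, and Birc5 encodes survivin, a subunit of the chromosomal passenger complex that is made mainly in dividing cells and belongs to the family of inhibitors of apoptosis. Myc encodes a transcription factor that promotes cell growth and division, and Tfrc encodes the transferrin receptor, through which cells take up iron. Hmgb1 encodes an abundant chromatin protein that dying cells release as an alarm signal. Ccnd3 encodes a D-type cyclin that acts in the first gap phase of the cycle and is well known in lymphocytes. In a bulk sample, fewer cells of a type and less RNA per cell cannot be told apart.

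The promoters of 3 of the falling genes are shown because transcription of mitotic genes is known to be timed through short promoter elements. Each sequence is the 250 bases before the outermost annotated start, from RefSeq on the build GRCm38.p6, written 5′ to 3′ on the strand of the gene. Capitals mark matches, on either strand, to TTTGAA (the cell cycle genes homology region), CCAAT (the CCAAT box) or CACGTG (the E-box, which Myc can bind). The CCAAT box reads ATTGG where it lies on the opposite strand.
Cdk1, at chr10:69352913-69353162 on the minus strand: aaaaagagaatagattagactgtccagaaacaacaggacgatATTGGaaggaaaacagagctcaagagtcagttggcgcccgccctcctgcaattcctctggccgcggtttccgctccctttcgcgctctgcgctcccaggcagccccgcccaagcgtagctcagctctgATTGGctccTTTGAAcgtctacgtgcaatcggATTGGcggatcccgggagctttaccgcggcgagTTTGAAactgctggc
Hmgb1, at chr5:149053058-149053307 on the minus strand: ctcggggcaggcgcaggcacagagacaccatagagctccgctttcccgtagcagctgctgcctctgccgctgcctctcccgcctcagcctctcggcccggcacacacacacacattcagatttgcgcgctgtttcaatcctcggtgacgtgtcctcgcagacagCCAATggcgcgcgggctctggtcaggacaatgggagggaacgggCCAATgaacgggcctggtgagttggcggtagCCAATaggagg
Birc5, at chr11:117848987-117849236 on the plus strand: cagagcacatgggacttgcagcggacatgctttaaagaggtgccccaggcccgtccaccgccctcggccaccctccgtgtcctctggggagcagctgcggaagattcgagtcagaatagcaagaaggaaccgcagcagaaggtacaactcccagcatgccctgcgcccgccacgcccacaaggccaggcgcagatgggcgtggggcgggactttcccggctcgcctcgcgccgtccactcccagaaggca

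The Cdk1 promoter held 2 matches to TTTGAA and 3 to CCAAT, the Hmgb1 promoter held 3 matches to CCAAT, and the Birc5 promoter held no match to any of the 3 motifs. Of the 6 genes, 5 had an entry in the promoter table, with 8 entries in all, since Tfrc, Hmgb1 and Ccnd3 each had 2 annotated starts; Myc had none. Tfrc had 1 CCAAT match before its outermost start and none before the other, and Ccnd3 had 1 before its inner start and none before the outermost. The single E-box among the 8 entries lay before the inner start of Hmgb1. Over all 32851 promoters of the table, in windows of 250 bases before to 50 after the start, TTTGAA was found in 17.9%, CCAAT in 37.4% and CACGTG in 7.15%. A match says only that these letters are present.

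The depth of the samples differed between groups, and this bears on each value below. The counts of all panel genes summed to between 392596 and 1232726 per tumor, with repeat-dose tumor C the lowest. The geometric mean of the 20 housekeeping probes lay between 530 and 1168 counts in repeat-dose tumors, 1217 and 1638 in late single-dose tumors, 1246 and 2002 in early single-dose tumors, and 2309 and 3034 in saline tumors. A scaled count is the raw count divided by the tumor's relative housekeeping mean. Of the 72 values of the 6 genes, 71 lay above the tumor's background limit, set 2 SD above the mean of its negative probes; Cdk1 in repeat-dose tumor C, at 15 raw counts, lay below it. Per the labels, each replicate was a mouse of its own.

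Birc5 was the lowest of all 729 genes by its change in repeat-dose tumors against saline. Its scaled counts were 232, 296 and 288 in repeat-dose tumors. They were 598, 728 and 383 in late single-dose tumors. They were 529, 485 and 620 in early single-dose tumors, and 831, 867 and 878 in saline tumors. Every treated tumor lay below every saline tumor, and every repeat-dose tumor lay below every tumor of both single-dose groups. The order of the means was repeat dose, early single dose, late single dose and saline, and the 2 single-dose groups overlapped.

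**Figure D1:**
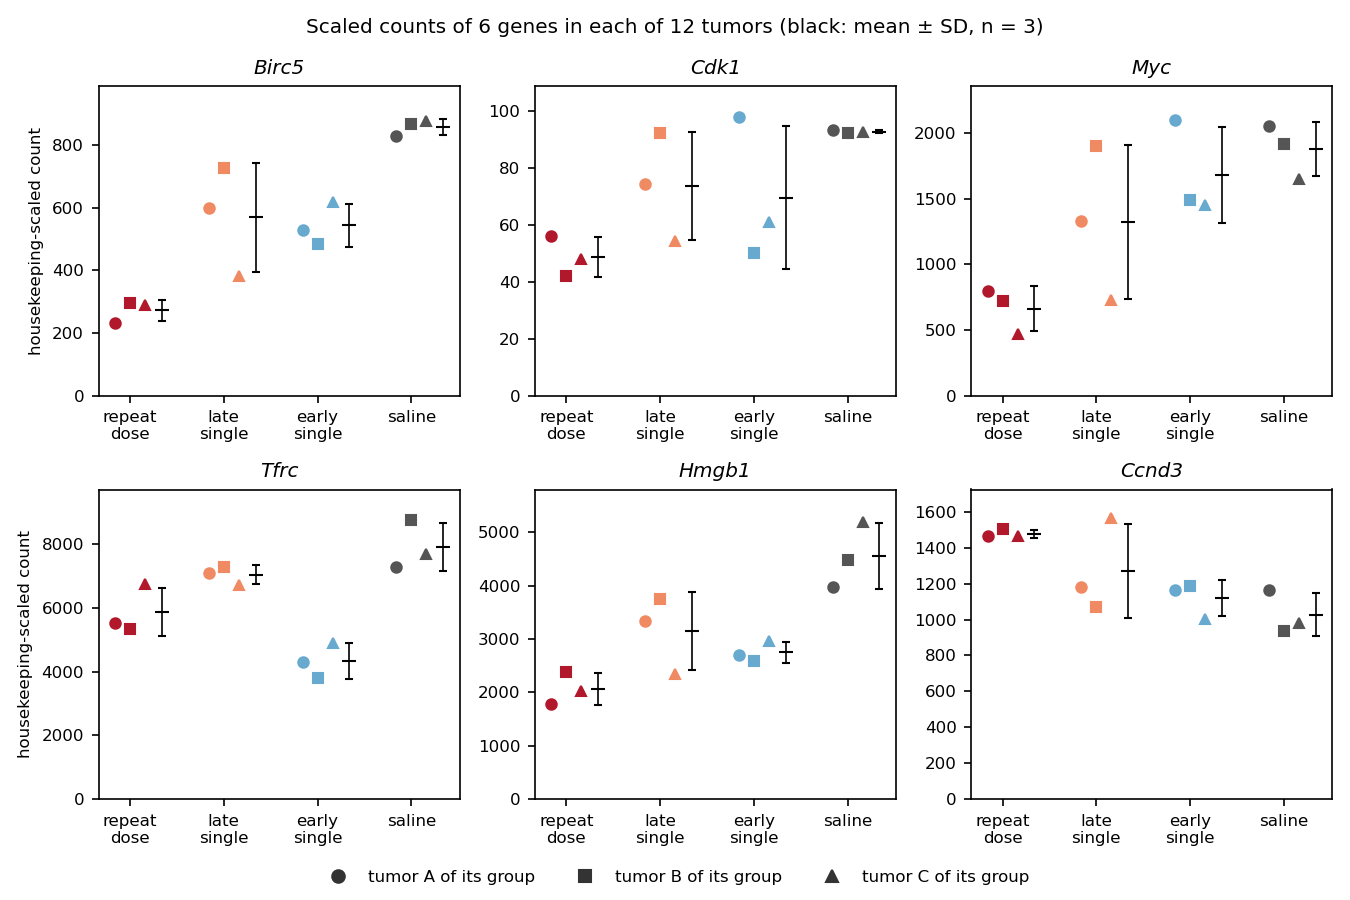
Housekeeping-scaled counts (vertical axis, linear, starting at 0) of Birc5, Cdk1, Myc, Tfrc, Hmgb1 and Ccnd3 in each of the 12 tumors, by group; symbols are single tumors and black marks the mean ± SD (n = 3). Birc5 lay between 232 and 296 in repeat-dose tumors and between 831 and 878 in saline tumors, while Ccnd3 lay between 1465 and 1505 in repeat-dose tumors and between 939 and 1163 in saline tumors.

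Cdk1 was the faintest of the 6 probes relative to background and the least certain. Its scaled counts were 56.1, 42.1 and 48.0 in repeat-dose tumors, 74.5, 92.2 and 54.3 in late single-dose tumors, 98.0, 49.9 and 61.0 in early single-dose tumors, and 93.3, 92.4 and 92.8 in saline tumors. The repeat-dose values came from 35, 29 and 15 raw counts, and the 95% Poisson interval of the last, 8.40 to 24.7 counts, shows how little precision it carries; such intervals cover counting error only. Saline tumors were nearly equal, and the repeat-dose tumors all lay below them. The early single-dose tumors ranged across both of those groups, so neighbours in the order of means (repeat dose, early single dose, late single dose, saline) overlapped except for late single dose and saline, which were separated by less than 1 scaled count.

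With housekeeping scaling Myc was near the saline level 2 days after the first dose and low after the second. Its scaled counts were 797, 718 and 470 in repeat-dose tumors. They were 1331, 1907 and 731 in late single-dose tumors. They were 2105, 1489 and 1450 in early single-dose tumors, and 2059, 1920 and 1653 in saline tumors. Early single-dose and saline tumors overlapped, late single-dose tumors spread over the range of both and down into that of the repeat-dose group, and all 3 repeat-dose tumors lay below all early single-dose and saline tumors. The means ran upward in the order repeat dose, late single dose, early single dose and saline, with overlap between each pair of neighbours. Under other scalings the early single-dose group also lay below saline, with a fitted log2 change of -0.83 by TMM, -1.14 by total count and -0.62 by positive controls, beside -0.16 by housekeeping probes.

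Tfrc followed another course. Its scaled counts were 5540, 5354 and 6754 in repeat-dose tumors, 7113, 7303 and 6717 in late single-dose tumors, 4303, 3800 and 4912 in early single-dose tumors, and 7281, 8754 and 7712 in saline tumors. The early single-dose tumors were the lowest, and none of them overlapped with any other group. Late single-dose tumors overlapped with saline tumors by 1 tumor, and repeat-dose tumors lay below saline, above the early single-dose group, and overlapped with the late single-dose group through tumor C of each. The order of the means was early single dose, repeat dose, late single dose and saline.

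Hmgb1 was low in every treated tumor. Its scaled counts were 1784, 2374 and 2022 in repeat-dose tumors, 3343, 3748 and 2334 in late single-dose tumors, 2695, 2581 and 2962 in early single-dose tumors, and 3974, 4486 and 5198 in saline tumors. All 9 treated tumors lay below all saline tumors. Repeat-dose tumors lay below the early single-dose tumors, and overlapped with the late single-dose group only through its tumor C.

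Ccnd3 did the reverse on this scale. Its scaled counts were 1465, 1505 and 1469 in repeat-dose tumors, 1181, 1069 and 1565 in late single-dose tumors, 1167, 1188 and 1005 in early single-dose tumors, and 1163, 939 and 983 in saline tumors. Repeat-dose tumors lay above all early single-dose and saline tumors, and the other groups overlapped with each other. The repeat-dose tumors were closely alike, with an SD of 22.1 around a mean of 1480 scaled counts (n = 3).

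Against saline, the fitted log2 changes of the repeat-dose group were -1.66 ± 0.24 (SE) for Birc5, -1.50 ± 0.35 for Myc, -1.14 ± 0.24 for Hmgb1, -0.93 ± 0.31 for Cdk1, -0.43 ± 0.20 for Tfrc and 0.52 ± 0.20 for Ccnd3. Ranked from the lowest change of 729 genes, these were places 1, 2, 5, 9, 21 and 217. The median change of all genes was 1.19, since most genes of this immune panel were higher, so Ccnd3 lay 0.67 below that median on the log2 scale. A change below 0 was found for 80 of the 729 genes. In this comparison 3.84% of genes had every repeat-dose tumor below every saline tumor, as 5 of the 6 genes did, and 64.1% had every one above, as Ccnd3 did; these counts were part of the choice of genes and are given as background.

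After a single dose the changes against saline were smaller, except for Tfrc in early single-dose tumors, and differently ordered. In late single-dose tumors the log2 change was -0.59 ± 0.23 (SE) for Birc5, -0.54 ± 0.23 for Hmgb1, -0.50 ± 0.34 for Myc, -0.33 ± 0.29 for Cdk1, -0.17 ± 0.20 for Tfrc and 0.31 ± 0.19 for Ccnd3, with a median of 0.78 over all genes. In early single-dose tumors it was -0.87 ± 0.20 for Tfrc, -0.73 ± 0.23 for Hmgb1, -0.66 ± 0.23 for Birc5, -0.42 ± 0.30 for Cdk1, -0.16 ± 0.34 for Myc and 0.12 ± 0.19 for Ccnd3, with a median of 0.56. Tfrc held place 3 from the lowest in the early group and place 44 in the late group, and Myc held place 70 in the early group and place 6 in the late group. The 3 comparisons share the saline tumors. In the late group 3 of the 6 genes (Birc5, Cdk1 and Hmgb1) had every tumor below every saline tumor, against 2.06% of all genes, and in the early group 3 (Birc5, Tfrc and Hmgb1) did, against 3.70%.

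**Figure D2:**
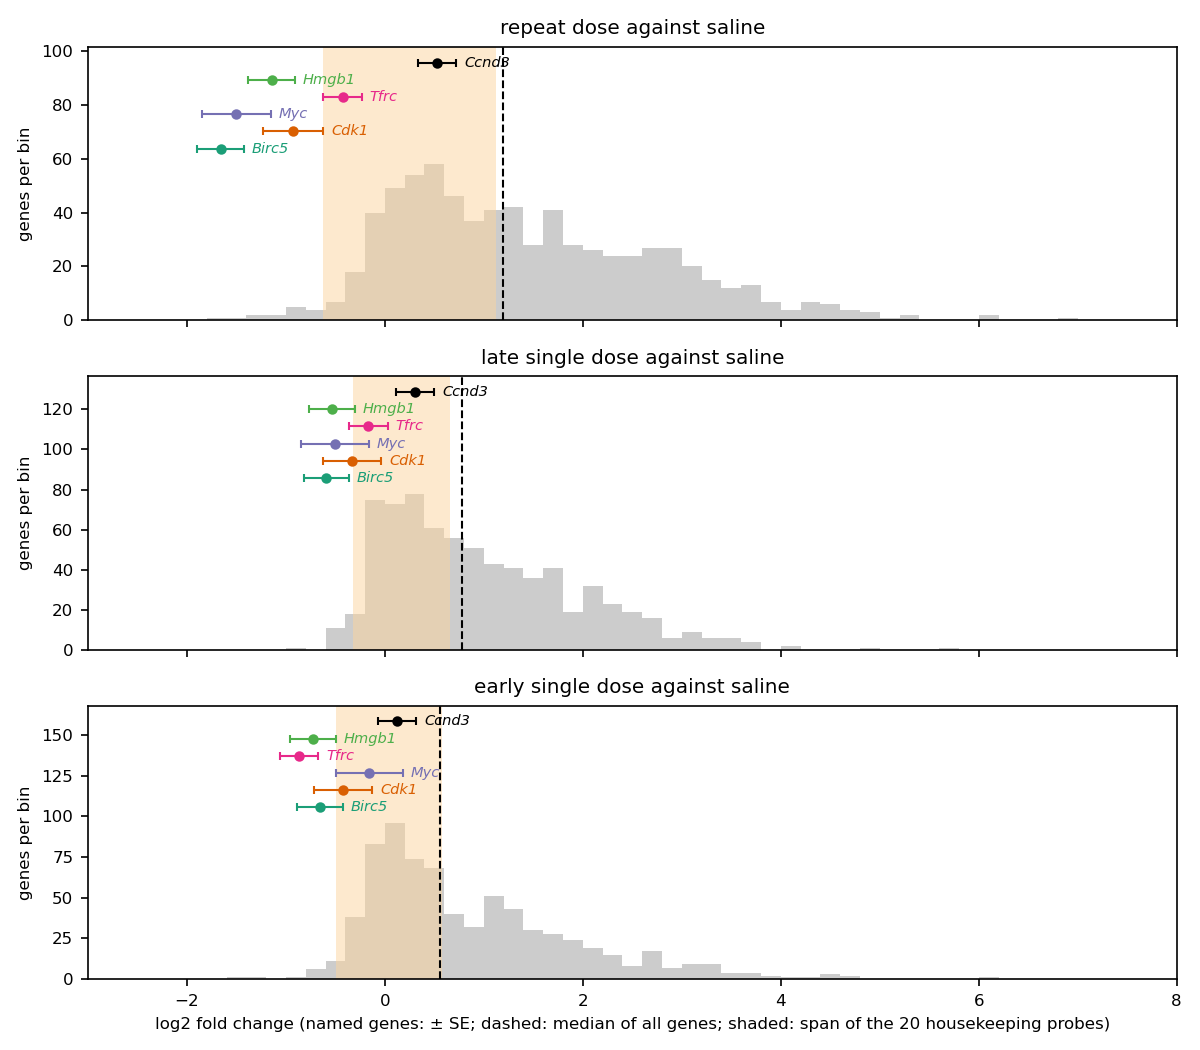
Histograms of the fitted log2 fold change against saline over 729 genes (horizontal axis; vertical axis, genes per bin) for repeat-dose, late single-dose and early single-dose tumors, with Birc5, Cdk1, Myc, Tfrc, Hmgb1 and Ccnd3 as points ± SE. The dashed line is the median of all genes (1.19, 0.78 and 0.56 in that order) and the shaded band spans the 20 housekeeping probes; Ccnd3 lay inside the band in all 3 comparisons, and Birc5 and Hmgb1 lay below it in all 3.

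The scale itself moved between groups, and the housekeeping probes show by how much. In repeat-dose tumors against saline the scaled difference of the 20 housekeeping probes ranged between -0.62 for Gusb and 1.13 for G6pdx on the log2 scale, so the changes of Tfrc and Ccnd3 lay within their span and those of Birc5, Myc, Hmgb1 and Cdk1 below it. Scaling by trimmed mean of M values (TMM), by the total count of panel genes or by the positive controls alone made each fall larger. For Birc5 in repeat-dose tumors against saline these gave -2.85, -3.28 and -3.15, and for Tfrc -1.65, -2.04 and -1.96. The rise of Ccnd3 did not hold under these scalings, which gave -0.66, -1.09 and -0.94, whereas the steadier 10 housekeeping probes gave 0.58. Birc5, Cdk1, Myc, Tfrc and Hmgb1 were lower in the 3 treated groups than in saline under all 5 scalings, and Ccnd3 was higher only under the 2 that used housekeeping probes.

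**Figure D3:**
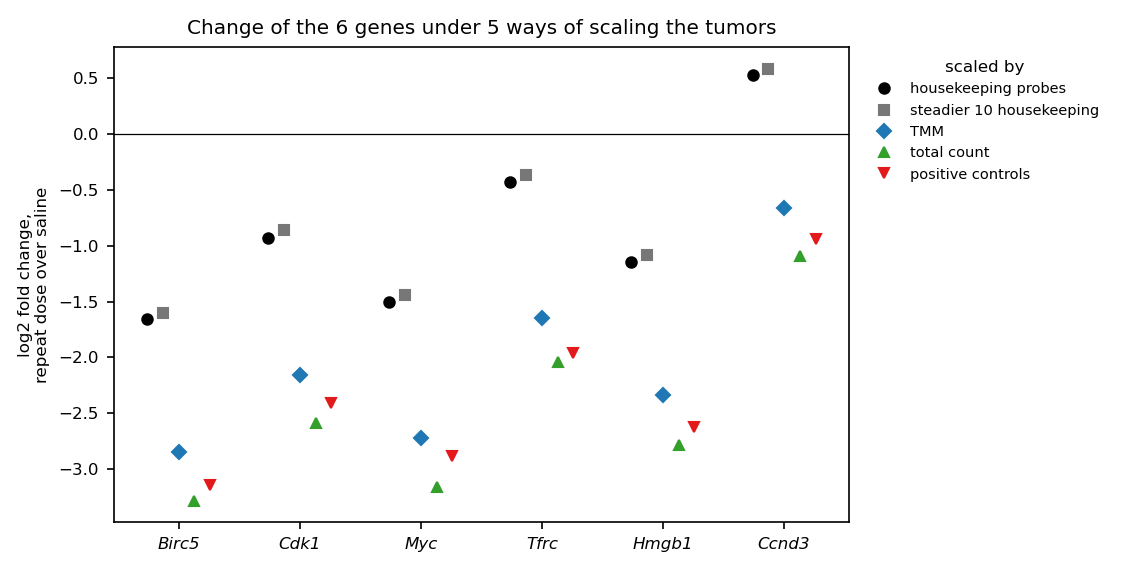
Fitted log2 fold change of repeat-dose tumors over saline tumors (vertical axis) for each of the 6 genes, under 5 ways of scaling the tumors (symbols). Birc5 ranged between -3.28 and -1.60, and Ccnd3 lay above 0 under the 2 housekeeping scalings (0.52 and 0.58) and below 0 under the other 3.

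Ratios of raw counts within a tumor need no scaling between tumors, and the choice of Ccnd3 as denominator lets the contrast be read directly. The probes differ in efficiency, so a ratio is compared only between tumors. The Birc5 to Ccnd3 ratio was 0.159, 0.197 and 0.196 in repeat-dose tumors, 0.507, 0.681 and 0.245 in late single-dose tumors, 0.453, 0.408 and 0.617 in early single-dose tumors, and 0.714, 0.924 and 0.893 in saline tumors. All repeat-dose tumors lay below all others, and all saline tumors above all others. The Myc to Ccnd3 ratio was 0.544, 0.477 and 0.320 in repeat-dose tumors, 1.13, 1.78 and 0.468 in late single-dose tumors, 1.80, 1.25 and 1.44 in early single-dose tumors, and 1.77, 2.04 and 1.68 in saline tumors. Here the early single-dose and saline tumors overlapped, and late single-dose tumor C lay among the repeat-dose tumors.

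The Hmgb1 to Ccnd3 ratio averaged 1.39 ± 0.18 in repeat-dose tumors, 2.61 ± 1.03 in late single-dose tumors, 2.48 ± 0.41 in early single-dose tumors and 4.49 ± 0.97 in saline tumors (SD, n = 3 each). The Tfrc to Ccnd3 ratio averaged 3.98 ± 0.55, 5.72 ± 1.30, 3.92 ± 0.87 and 7.81 ± 1.53 in the same order of groups. The Cdk1 to Ccnd3 ratio averaged 0.0330 ± 0.0052 in repeat-dose tumors, 0.0614 ± 0.0258 in late single-dose tumors, 0.0622 ± 0.0210 in early single-dose tumors and 0.0910 ± 0.0096 in saline tumors. Repeat-dose and saline tumors did not overlap in any of these 5 ratios.

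The falling genes also moved unequally among themselves. The Hmgb1 to Birc5 ratio was 7.68, 8.02 and 7.02 in repeat-dose tumors, 5.59, 5.15 and 6.09 in late single-dose tumors, 5.09, 5.32 and 4.78 in early single-dose tumors, and 4.78, 5.17 and 5.92 in saline tumors. The repeat-dose tumors stood above all 9 others, which overlapped with each other, so Birc5 was the lower of the pair there relative to the other groups. The Hmgb1 to Tfrc ratio was 0.322, 0.444 and 0.299 in repeat-dose tumors, 0.470, 0.513 and 0.347 in late single-dose tumors, 0.626, 0.679 and 0.603 in early single-dose tumors, and 0.546, 0.513 and 0.674 in saline tumors. Repeat-dose tumors lay below early single-dose and saline tumors in this ratio, and the 2 groups taken at 8 days overlapped.

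**Figure D4:**
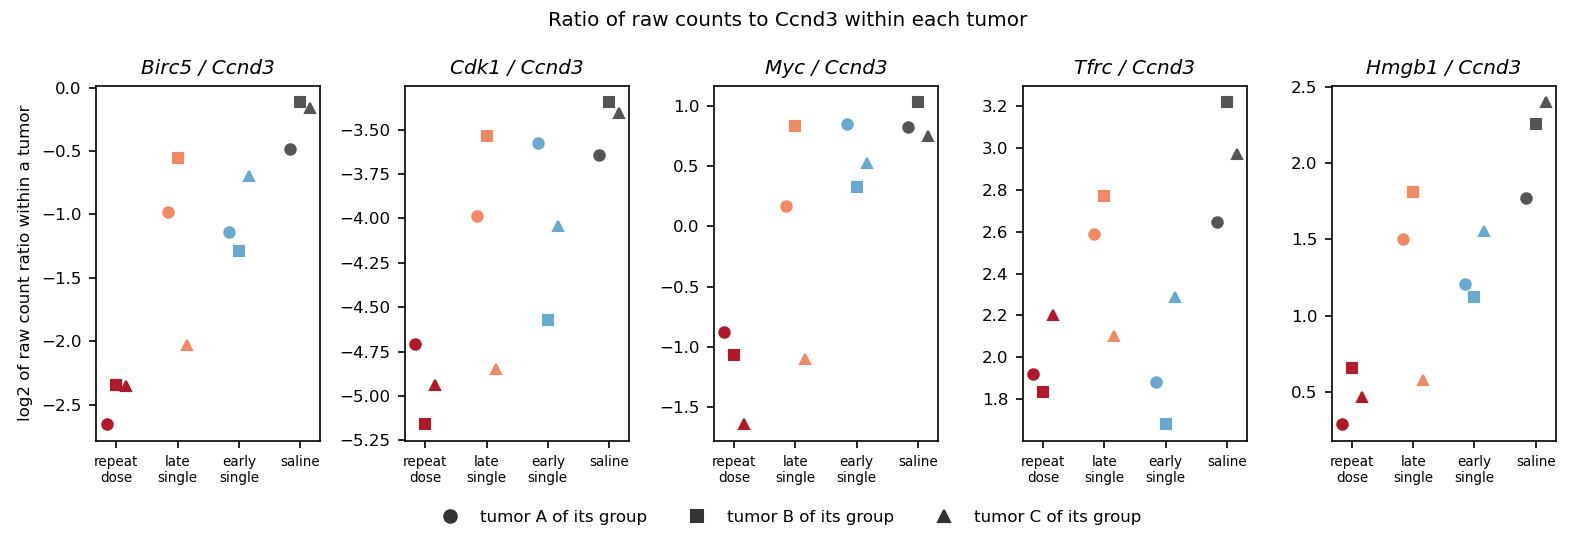
Log2 of the ratio of raw counts of Birc5, Cdk1, Myc, Tfrc and Hmgb1 to Ccnd3 within each tumor (vertical axis), by group; symbols are single tumors. The repeat-dose tumors lay below the saline tumors in all 5 panels, and late single-dose tumor C lay lowest of its group in each.

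To examine the second dose, repeat-dose tumors were set against late single-dose tumors, which were the same number of days past the first dose. Saline tumors enter this test only through the shared estimate of the spread. The counts of the treated tumors, however, were taken to be part of the choice of the genes, and the same counts enter every comparison between treated groups. The p-values, intervals and ranks of the 6 genes there are therefore not independent of that choice. The log2 change was -1.07 for Birc5 (95% interval -1.58 to -0.55), -0.997 for Myc (-1.76 to -0.24), -0.61 for Hmgb1 (-1.12 to -0.09), -0.60 for Cdk1 (-1.28 to 0.09), -0.26 for Tfrc (-0.69 to 0.17) and 0.22 for Ccnd3 (-0.21 to 0.65), beside a median of 0.41 over all genes. Birc5 held place 1, Myc place 3, Hmgb1 place 8 and Cdk1 place 9 from the lowest of 729 genes. None of the 6 passed edgeR's quasi-likelihood test with Benjamini-Hochberg adjustment over 729 genes, where the adjusted p was 0.408 for Birc5, 0.425 for Myc, Hmgb1 and Cdk1, 0.502 for Tfrc and 0.557 for Ccnd3. Of all genes, 0% were called in either direction; 3 of the 6 had an unadjusted p under 0.05, against 10.6% of the 729 genes (77). Birc5 alone had every repeat-dose tumor below every late single-dose tumor, against 1.65% of all genes.

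Tumor C of the late single-dose group decided these calls. Without it, the log2 change was -1.29 for Birc5, -1.29 for Myc and -0.78 for Hmgb1, with edgeR adjusted p-values of 0.0118, 0.0289 and 0.0354. Among the pathway genes listed below, Myd88 (0.031), Atm (0.0317), Stat3 (0.0346), Notch1 (0.0354) and Hamp (0.0417) passed that test too, as rises. The remaining genes of those lists did not pass. The share of all genes that passed in that fit is not given here. The calls therefore cannot be read as particular to Birc5, Myc and Hmgb1. Over all 12 fits with 1 tumor left out, the adjusted p ranged between 0.0118 and 0.972 for Birc5 and between 0.0289 and 0.972 for Myc. DESeq2 with housekeeping size factors called 3 of 729 genes, among them Birc5 with an adjusted p of 0.0244. In this tumor Birc5, Cdk1, Myc, Tfrc and Hmgb1 were the lowest and Ccnd3 the highest of the group. Its T cell markers (10 of 10 listed, summed) reached 3096 scaled counts, against 1714 and 1153 in late single-dose tumors A and B, and its macrophage markers (8 of 8) reached 14298, against 12733 and 5266. The part of cell makeup in its values was not tested.

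**Figure D5:**
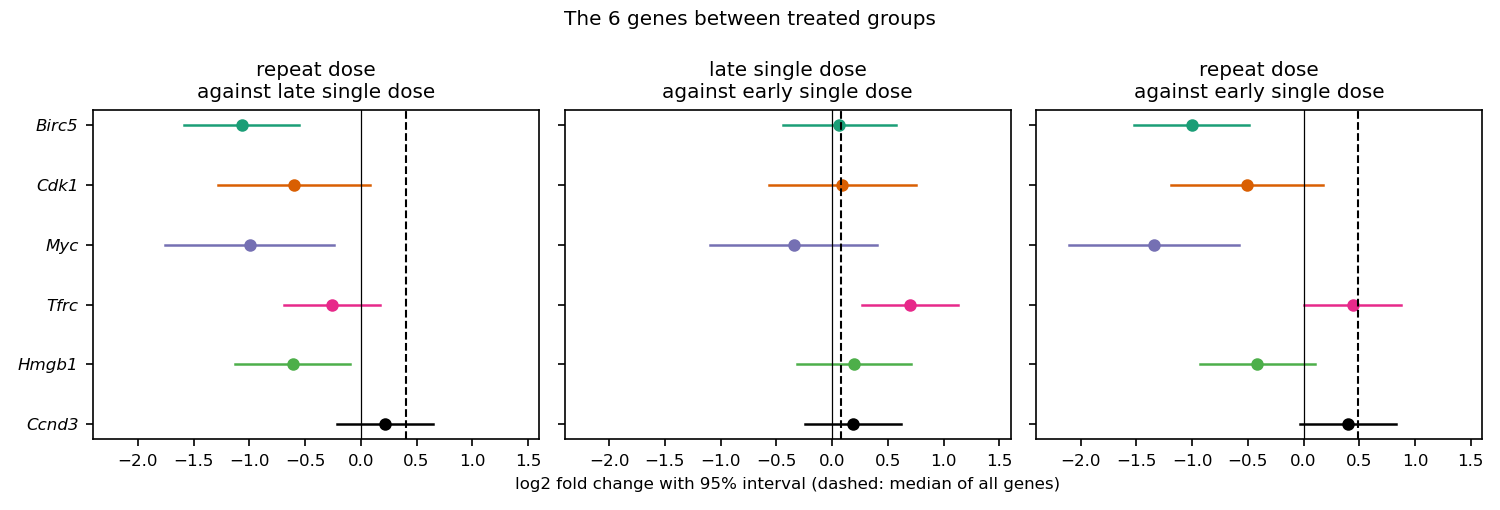
Fitted log2 fold change with its 95% interval (horizontal axis) of each of the 6 genes for repeat dose over late single dose, late single dose over early single dose, and repeat dose over early single dose; the dashed line is the median of all genes. In the first panel Birc5 lay at -1.07 and Ccnd3 at 0.22, and no gene passed the adjusted threshold in any panel.

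Repeat-dose tumors were next set against early single-dose tumors, both taken 2 days after their last dose. They were taken 8 and 2 days after the first dose, so the number of doses and tumor age cannot be told apart here. Myc stood at -1.34 on the log2 scale (95% interval -2.11 to -0.58) and Birc5 at -1.002 (-1.52 to -0.49), places 2 and 4 from the lowest. Hmgb1 stood at -0.41 (-0.93 to 0.10), Cdk1 at -0.51 (-1.19 to 0.18), Tfrc at 0.44 (0.01 to 0.87) and Ccnd3 at 0.40 (-0.03 to 0.83), with a median of 0.49 over all genes. By edgeR the adjusted p was 0.0619 for Birc5 and 0.0801 for Myc and between 0.2 and 0.324 for the other 4, so none passed, as 0% of genes did; 176 genes had an unadjusted p under 0.05 (24.1%), and so did 3 of the 6. DESeq2 with housekeeping size factors called 79 genes, and both Birc5 and Myc had an adjusted p of 0.00709 there. Leaving out late single-dose tumor C, which enters only through the shared spread, gave an edgeR adjusted p of 0.0274 for Birc5 and 0.0314 for Myc, and leaving out tumor B of that group gave 0.0385 for each. How many of all genes passed in those fits is not given here, so the calls cannot be read as particular to Birc5 and Myc. Birc5, Myc and Hmgb1 had every repeat-dose tumor below every early single-dose tumor, against 3.02% of all genes, while Tfrc and Ccnd3 had every one above, against 35.0%. Tfrc and Ccnd3 stood below 0 instead under TMM (-0.12 and -0.14), total-count (-0.19 and -0.22) and positive-control scaling (-0.66 and -0.65).

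Between the 2 single-dose groups, Tfrc had the largest difference of the 6 with housekeeping scaling. Time since the dose and tumor age differ together between these groups and cannot be told apart. Late single-dose tumors were 0.70 above early single-dose tumors on the log2 scale (95% interval 0.27 to 1.13), which is 1.62-fold, and all 3 late tumors lay above all 3 early tumors, as in 6.72% of all genes. The edgeR adjusted p was 0.209, and DESeq2 with housekeeping size factors gave 0.0116. Myc stood at -0.34 (-1.09 to 0.41), Hmgb1 at 0.19 (-0.32 to 0.71), Ccnd3 at 0.18 (-0.25 to 0.61), Cdk1 at 0.09 (-0.57 to 0.75) and Birc5 at 0.07 (-0.44 to 0.57), beside a median of 0.08, with adjusted p-values between 0.903 and 0.998. Myc differed more than Tfrc with positive controls alone (-0.66 for Myc and 0.32 for Tfrc) and without late single-dose tumor B (-0.70 and 0.67). By edgeR 0% of genes were called and 57 had an unadjusted p under 0.05 (7.82%), 1 of them Tfrc; DESeq2 with housekeeping size factors called 24.

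Some genes outside the set had profiles close to its members over the 12 tumors. Likeness was the root mean square difference of log2(scaled count + 1), centred on each gene's mean, over 617 genes with a mean scaled count of at least 50. Nup107, which encodes a nuclear pore subunit, was nearest to Birc5 (0.33), Cdk1 (0.17) and Hmgb1 (0.19), and Mcam, a cell adhesion molecule of melanoma cells and endothelium, was nearest to Myc (0.30); the median over genes was between 0.98 and 1.23 for these 4. Nup107 averaged 618 ± 10.8 scaled counts in repeat-dose tumors, 827 ± 216 in late single-dose tumors, 839 ± 117 in early single-dose tumors and 1136 ± 36.4 in saline tumors (SD, n = 3 each). Creb1, which encodes a transcription factor, was nearest to Tfrc (0.27, with a median of 0.87). Ly96, which encodes the partner of a Toll-like receptor, was nearest to Ccnd3 (0.10, with a median of 0.58). Ly96 averaged 1101 ± 20.1 in repeat-dose tumors, 854 ± 226 in late single-dose tumors, 760 ± 65.2 in early single-dose tumors and 699 ± 42.4 in saline tumors. Within the set, Birc5 and Hmgb1 were the closest pair (0.25), and Myc and Ccnd3 the farthest (0.91).

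Markers of the cells in the tumors were read beside these genes. Of 10 listed melanoma markers, 2 were measured here. Mcam had 1234, 997 and 937 scaled counts in repeat-dose tumors and 2841, 2275 and 1510 in saline tumors, and fell by 1.06 on the log2 scale (edgeR adjusted p = 0.0168). That call was lost without saline tumor A (adjusted p = 0.0611) or repeat-dose tumor B (0.0513) or C (0.0555). S100b rose by 1.26 (edgeR adjusted p = 0.0105), so the pair moved in opposite directions with housekeeping scaling. The median of all genes was 1.19 on this scale, so S100b hardly moved relative to the panel. The summed T cell markers ranged between 2174 and 2521 in repeat-dose tumors, 1153 and 3096 in late single-dose tumors, 794 and 1076 in early single-dose tumors, and 456 and 925 in saline tumors. The summed macrophage markers ranged between 9816 and 29704 in repeat-dose tumors, 5266 and 14298 in late single-dose tumors, 4920 and 10264 in early single-dose tumors, and 1015 and 3950 in saline tumors. Of the markers tested in repeat-dose tumors against saline, 8 of 8 for macrophages, 6 of 10 for T cells and 4 of 6 for NK cells rose, against 59.4% of all 729 genes, and none fell. The shares of T cell and NK cell markers that rose were thus close to that of all genes. Beside these, 2 of 4 neutrophil, 2 of 3 dendritic, 1 of 6 B cell and 1 of 6 fibroblast markers rose, and none fell. The marker calls are given for housekeeping scaling only, by which 1.92% of all genes fell, against 23.2% under TMM and 34.3% under total-count scaling. Of 6 endothelial markers none rose and 2 fell with housekeeping scaling. These were Kdr, a receptor for a vascular growth factor, at -0.995 ± 0.21 (log2 and SE, edgeR adjusted p = 0.00245), and Vwf, the gene of von Willebrand factor, at -0.99 ± 0.34 (0.0265). The call on Vwf was lost without any 1 of the repeat-dose tumors (adjusted p of 0.0504, 0.0703 and 0.0698 without A, B and C) and without saline tumor A (0.0687) or B (0.0546). The summed scaled counts of the 6 overlapped between groups, at 1321 to 2389 in repeat-dose tumors, 1541 to 2380 in late single-dose tumors, 1299 to 1683 in early single-dose tumors and 1487 to 2169 in saline tumors. No marker of these lists was below background in all tumors. The part of these cells in the values of Birc5, Cdk1, Myc, Tfrc, Hmgb1 and Ccnd3 was not tested.

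Other genes of the same pathways on the panel were read in repeat-dose tumors against saline with edgeR, where 433 of the 729 genes rose and 14 (1.92%) fell. Of the cell cycle list of 44 genes, 3 were tested, and all 3 act in arrest or damage control. Cdkn1a, which encodes an inhibitor of cyclin-dependent kinases, rose by 1.64 ± 0.36 (log2 and SE, adjusted p = 0.00279). Atm, a damage-sensing kinase gene, rose by 0.69 ± 0.21 (adjusted p = 0.0146), and Trp53, the gene of the tumor suppressor p53, had -0.06 ± 0.17 (adjusted p = 0.794). The call on Atm was lost without saline tumor B (adjusted p = 0.0525) or repeat-dose tumor B (0.0584), and its sign turned to -0.50 under TMM scaling. No gene of the 3 was called as a rise under TMM, total-count or positive-control scaling, so the rise of Cdkn1a also depended on the scale. Under TMM 1 of the 3 fell, where 23.2% of all genes fell, and under total-count scaling 2 fell, where 34.3% did.

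Of 42 listed genes of Myc and growth signaling, 29 were tested and 13 rose, 1 fell and 15 did not pass, with a median log2 change of 0.49 beside 1.19 for all genes. Stat3, a transcription factor of cytokine signaling, rose by 1.63 ± 0.25 (adjusted p = 0.00077), Notch1, a receptor gene, by 1.92 ± 0.32 (0.00102), and Pik3cg, a lipid kinase gene of leukocytes, by 2.36 ± 0.47 (0.00193). Ewsr1, which encodes an RNA-binding protein, fell by 0.46 ± 0.18 on the log2 scale (edgeR adjusted p = 0.0423), a call lost in 10 of the 12 fits with 1 tumor left out, where the adjusted p reached 0.117, and with the replicate letter as a block (0.0607). The split turned with the scale: under TMM 2 of the 29 rose and 16 fell, where 32.1% of all genes rose and 23.2% fell, and under total-count scaling none rose and 20 fell, where 21.8% of all genes rose and 34.3% fell. In late single-dose tumors against saline 4 of the 29 rose (39.1% of all genes did) and in early single-dose tumors 7 did (30.5% of all genes), with no fall in either (0.137% and 0.686% of all genes fell).

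For iron, 5 of 11 listed genes were tested beside Tfrc. In repeat-dose tumors 4 rose and none fell, where 59.4% of all genes rose and 1.92% fell. The median log2 change was 3.25, beside 1.19 for all genes. Lcn2, a secreted protein that binds iron carriers, rose by 4.02 ± 0.87 (edgeR adjusted p = 0.00279), Slc11a1, a metal transporter of phagocytes, by 3.25 ± 0.52 (0.000875), and Cybb, the oxidase subunit of phagocytes, by 3.66 ± 0.69 (0.00162). Which cells these transcripts came from was not tested. Hamp rose by 1.13 ± 0.40 (edgeR adjusted p = 0.0306), a call lost in some fits with 1 tumor left out, where the adjusted p reached 0.0998. Ltf, at 0.94 ± 0.68 (edgeR adjusted p = 0.257), did not pass. Under TMM, total-count and positive-control scaling 3 of the 5 rose, where 32.1%, 21.8% and 15.8% of all genes did. Of the 5, 3 rose in late single-dose tumors (39.1% of all genes did) and 2 in early single-dose tumors (30.5% of all genes).

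For Hmgb1, 12 of 15 listed receptors and partners were tested. In repeat-dose tumors 9 rose and none fell, where 59.4% of all genes rose and 1.92% fell. The median log2 change was 1.68, beside 1.19 for all genes. Tlr2, a receptor for the released protein, rose by 1.80 ± 0.34 (edgeR adjusted p = 0.00171), and Havcr2, an inhibitory receptor that binds it, by 1.63 ± 0.39 (0.00453). The adaptor gene Myd88 rose by 2.02 ± 0.29 (0.00077) and the cytokine gene Il1b by 2.75 ± 0.64 (0.00405). The 3 that did not pass were Tlr4 at 0.53 ± 0.30 (edgeR adjusted p = 0.158), Trem1 at 0.66 ± 0.61 (0.381) and Thbd at 1.36 ± 0.55 (0.0504). Of the 12, 6 rose in late single-dose tumors (39.1% of all genes did) and 3 in early single-dose tumors (30.5% of all genes). Under TMM scaling 3 of the 12 rose and 1 fell in repeat-dose tumors, beside 32.1% and 23.2% of all genes. Under total-count scaling none rose and 2 fell, beside 21.8% and 34.3%.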

How the data were processed

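Per the file headers, the deposited files of single tumors held raw counts per probe. The series table held signal that the authors had normalized with nSolver before deposit, per the labels; no version is stated in the labels. Each value in it equalled the raw count times 1 factor per tumor, with a largest deviation of 0.00882 percent among counts of at least 100. The labels gave 4 groups of 3 tumors. The 6 genes and the gene lists were chosen with earlier results of these data known.

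Raw counts were fitted with edgeR 4.0.16 (glmQLFit, robust, and glmQLFTest) in R 4.3.3, with each tumor's library size set by the geometric mean of 20 housekeeping probes. All 12 tumors entered 1 fit of 4 groups, with Benjamini-Hochberg adjustment over 729 genes and a threshold of 0.05. A gene was tested if it exceeded the mean plus 2 SD of the negative probes in at least 3 tumors, and 21 of 750 genes were left out. The counts per tumor set the precision, which is least for Cdk1. Alternatives were DESeq2 1.42.0 (own or housekeeping size factors), limma 3.58.1 on log2(value + 1) of the authors' signal, 4 other scalings, no filter and a stricter filter (562 genes), background subtraction, a fit of only the groups compared, a replicate block and each tumor left out. The script was tested on simulated counts. Named were the 6 genes, genes among the 3 nearest to each, and genes of the lists (1 that the rule named is not reported here); list examples were picked after their values were seen.

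The replicate letters are shared between groups, but nothing in the labels says that a letter marks a shared mouse, batch or day. Deviations from the group means correlated across genes by 0.36, 0.43 and 0.57 between repeat-dose and saline tumors of the same letter. Over all 18 same-letter pairs the correlation ran from -0.65 to 0.60, so these values do not show that a letter pairs tumors. A fit with the letter as a block is given beside the reported fit. In the other 5 pairs of groups at least 1 letter was below 0.1. Chi-square per degree of freedom between tumors of the same group was 24.2 to 154, so each tumor was counted once. Promoter sequences came from RefSeq (GRCm38.p6), and no genome was used.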

Additional observations from a re-analysis of the deposited data

How the results depend on the processing

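Among the 429 refitted values of the 6 genes between treated groups, 21 passed the threshold that the reported fit missed, all for Birc5, Myc, Hmgb1 or Tfrc, and 21 changed sign, none of which had passed. Of the 6 genes, 0 passed in each of the 3 comparisons between treated groups by the reported fit. In repeat-dose over late single-dose tumors 2 passed with DESeq2 and its own size factors, where 10 of 729 genes did. With DESeq2 and housekeeping size factors 1 passed, where 3 of 729 genes did, and leaving out 1 tumor gave 0 to 3. In late single-dose over early single-dose tumors 1 passed with DESeq2 and housekeeping size factors, where 24 of 729 genes did, and leaving out 1 tumor gave 0. In repeat-dose over early single-dose tumors 1 passed with TMM scaling and with the filter on all samples. With total-count scaling, with only the groups compared and with both forms of DESeq2 2 passed, and leaving out 1 tumor gave 0 to 2. Of all 729 genes, 19 passed there with TMM scaling, 57 with DESeq2 and its own size factors and 79 with DESeq2 and housekeeping size factors. Counts over all genes are not given here for the other settings. The cause was not tested. The replicate block gave adjusted p-values of 0.501 for Birc5 in repeat-dose over late single-dose tumors and 0.107 and 0.0782 for Birc5 and Myc in repeat-dose over early single-dose tumors; it added no call on the 6 genes. In repeat-dose tumors against saline, the block gave 428 genes that rose and 13 that fell, and among the list and marker genes named with a test it changed only the call on Ewsr1. List genes that passed numbered 25 in repeat-dose, 16 in late single-dose and 12 in early single-dose tumors with the block.

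Ccnd3 turned negative with TMM, total-count scaling, positive controls alone and DESeq2 with its own size factors. In that order it gave -0.66, -1.09, -0.94 and -0.67 in repeat-dose tumors against saline, -0.48, -0.68, -0.51 and -0.49 in late single-dose tumors against saline, and -0.52, -0.87, -0.29 and -0.56 in early single-dose tumors against saline. It gave -0.18, -0.41, -0.42 and -0.18 in repeat-dose over late single-dose tumors, and -0.14, -0.22, -0.65 and -0.11 in repeat-dose over early single-dose tumors. Tfrc gave -0.12, -0.19, -0.66 and -0.090 in the last of these. In late single-dose over early single-dose tumors, positive controls alone gave -0.30 for Birc5, -0.19 for Cdk1, -0.17 for Hmgb1 and -0.23 for Ccnd3, background subtraction gave -0.038 for Cdk1, and leaving out 1 tumor gave -0.15 to 0.28 for Birc5 and -0.10 to 0.41 for Cdk1. In repeat-dose tumors against saline the 4 settings gave -0.50, -0.95, -0.73 and -0.51 for Atm, and Trp53 was 0.0065 with the steadier 10 housekeeping probes and between -0.157 and 0.050 with 1 tumor left out.

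The list genes that passed against saline numbered 28 in repeat-dose, 13 in late single-dose and 13 in early single-dose tumors. The lists held 3, 29, 5 and 12 tested genes for cell cycle, Myc and growth signaling, iron and Hmgb1, with Nfkb1 in both the Myc and the Hmgb1 list. Of all 729 genes, 59.4%, 39.1% and 30.5% rose and 1.92%, 0.137% and 0.686% fell in the same order of groups, so these counts do not set the lists apart from the panel. Among the list genes, positive controls alone gave 16, 1 and 1. Total-count scaling gave 22 in late and 21 in early single-dose tumors. DESeq2 with its own size factors gave 23 in late single-dose tumors, only the groups compared gave 0 in late single-dose tumors, and background subtraction gave 7 in early single-dose tumors. These counts pool rises and falls, and the direction turned with the scale. Of the 29 genes of Myc and growth signaling, 4 rose and 0 fell in late single-dose tumors by the reported fit, against 0 and 16 under total-count scaling. In early single-dose tumors 7 rose and 0 fell, against 1 and 17. The iron list had 0 falls under total-count scaling in either group. Leaving out 1 tumor gave 20 to 29 in repeat-dose tumors, 3 to 22 in late single-dose tumors and 5 to 15 in early single-dose tumors, lowest each time without saline tumor B. Cdk1 has no value with the filter on all samples. Depth limits Cdk1 most, and 3 tumors a group limit every comparison.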
